A study of Mus musculus with 12 samples.

Results

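Connexins are the membrane proteins of gap junctions. Connexin subunits assemble into a ring-shaped hemichannel, and hemichannels of adjoining cells dock into a channel that passes ions, second messengers and small metabolites from cell to cell. Cells can carry several connexins at once, and which of them can share a channel depends on the subfamily, so the set of connexins a cell makes is as much a part of its coupling as their amount. Mouse embryonic stem cells and the epiblast are coupled in this way, with Gja1 among their connexins. Gjb5 is best known from the trophoblast of the mouse placenta and from epidermis.

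The 5 connexin genes described here are Gja1, Gja4, Gjb2, Gjb5 and Gjc1, found by their symbols among 23136 named loci in each of 12 mouse RNA-seq libraries; the files hold 20 connexin loci in all. The members had been picked with their FPKM (fragments per kilobase of transcript scaled to the mapped fragments of the library) in the 4 groups already known, so their levels are a description, and no test is given for them. Tests are given only for genes outside the 5, on log2(FPKM + 1) values of 12320 named loci with at least 1 FPKM in at least 3 libraries. Of the members, 4 of 5 passed that filter; Gjb2 reached 1 FPKM in 1 library only.

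All cells derived from ESCs, embryonic stem cells, of strain C57 Bl/6J, with 3 libraries per group. Wild-type ESC were kept in the naive state, which resembles the epiblast before implantation, in N2B27 medium without serum, with LIF, the MEK inhibitor PD0325901 at 1 µM and the GSK3b inhibitor CHIR99021 at 3 µM. EpiLC, epiblast-like cells that stand closer to the epiblast after implantation, were wild-type cells moved to fibronectin with 12 ng/ml Fgf2, 20 ng/ml Activin A and 1% KOSR (a serum replacement) for 48 hours. Sirt1KO cells are ESCs lacking the deacetylase Sirt1, and Sirt1KO Otx2KD cells carry the same knockout with a knockdown of the transcription factor Otx2. Both are labelled as ESCs, so the naive medium is taken to apply to them. How the knockout and the knockdown were made, whether each is 1 clone, and whether the 3 libraries come from separate cultures are not given in the sources used here; if they do not, the p-values measure only technical spread.

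The targeted genes were read first. Sirt1 was at 25.4 to 26.2 FPKM in wild-type ESC, 15.3 to 15.7 in Sirt1KO and 15.04 to 16.03 in Sirt1KO Otx2KD, so it was lower in all 6 knockout libraries but far from absent. The FPKM covers the whole locus and not a deleted part. The mean Otx2 level was 7.38 FPKM in wild-type ESC; it was 100.2 for EpiLC, 27.0 for Sirt1KO and 6.07 for the knockdown group. All 10 pluripotent cell markers were measured above 0 in every group. Of these, 7 fell and 2 rose in EpiLC (38.8% and 35.8% of all tested loci). In Sirt1KO, 7 fell and 2 rose (32.7% and 32.4% of all tested loci). All 7 EpiLC markers, Otx2 among them, rose in EpiLC. Sequencing depth, read from the steps between low FPKM values, ran from 0.767 to 1.33 times that of wild-type ESC replicate 1, and no pair of libraries held identical values.

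Among the 5 genes, EpiLC differed from wild-type ESC in both the amount and the make-up of the transcripts. Their summed FPKM was 99.6 ± 2.75 (SD, n = 3) in wild-type ESC and 289 ± 6.63 in EpiLC. It was 104 ± 9.53 in Sirt1KO and 69.4 ± 2.29 in Sirt1KO Otx2KD. The ranges of wild-type ESC (96.6 to 102) and Sirt1KO (96.3 to 115) overlapped, EpiLC lay above all other libraries and Sirt1KO Otx2KD below them. In wild-type ESC, Gjc1 supplied 53.9% ± 0.701 of the sum, Gjb5 29.9% ± 0.759 and Gja1 12.8% ± 0.955. In EpiLC, Gja1 supplied 89.0% ± 0.357, Gjc1 10.05% ± 0.343 and Gjb5 0.603% ± 0.00303. Gjc1 thus held the largest share of the 5 in wild-type ESC and Gja1 in EpiLC. In Sirt1KO the share of Gja1 was 53.7% ± 6.73 and that of Gjc1 27.0% ± 4.22. With the Otx2 knockdown added, Gja1 supplied 30.5% ± 2.96 and Gjc1 45.3% ± 1.73. FPKM is per length, which allows these shares across genes. The sums and shares are of the 5 genes and not of all connexin transcripts. Over all 20 connexin loci the summed FPKM was 285 ± 5.47 in wild-type ESC and 296 ± 6.15 in EpiLC. It was 213 ± 6.55 in Sirt1KO and 213 ± 2.30 in Sirt1KO Otx2KD. The size of the group differences in the sum thus holds for the 5 genes only. In bulk RNA, fewer cells carrying a transcript and less of it per cell cannot be told apart, here and in every value that follows.

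**Figure D1:**
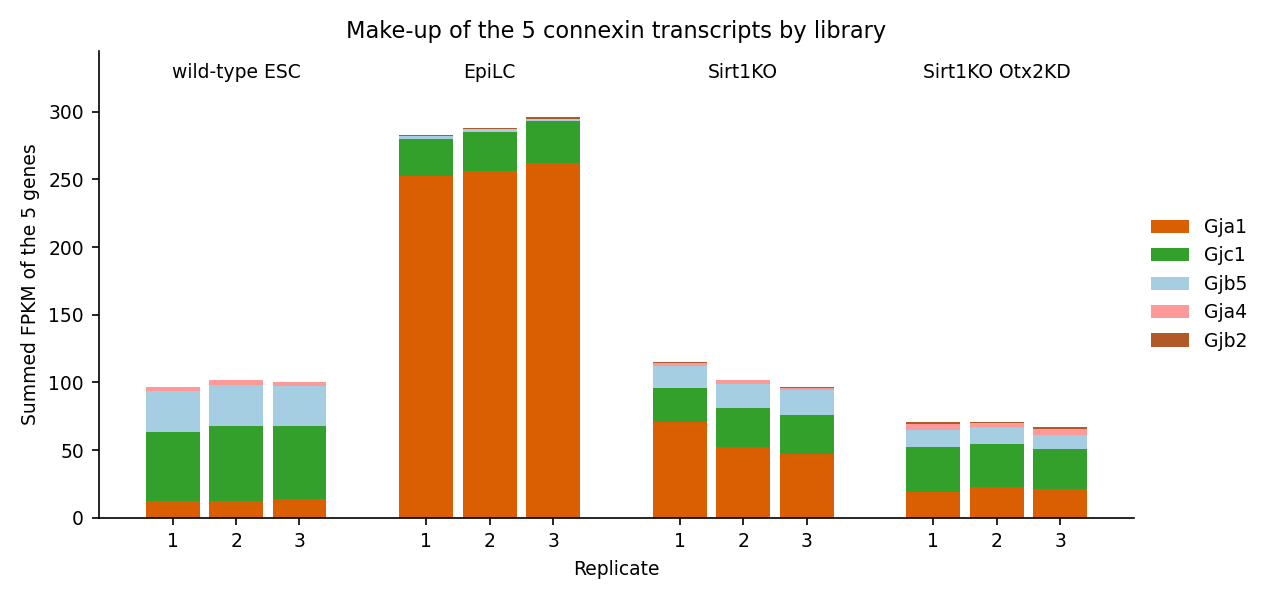
Summed FPKM of the 5 connexin genes (y axis) in each of the 12 libraries (x axis, replicate number within group), stacked by gene. The orange block of Gja1 fills most of each EpiLC bar (89.0% on average), while the green block of Gjc1 is the largest in the wild-type ESC and Sirt1KO Otx2KD libraries.

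Gja1, the most widely expressed mammalian connexin, lies at chr10:56097106-56110225 in mm9. Its promoter is shown because Gja1 is the member whose level differed most between groups and was the most abundant connexin of EpiLC; the promoters of Gja4 and Gjb5, both low in EpiLC, stand beside it for comparison. They are the 250 bases before the RefSeq start, in build GRCm38.p6, read 5′ to 3′ on the gene's strand: chr10:56377050-56377299 (plus strand) for Gja1, chr4:127314040-127314289 (minus) for Gja4 and chr4:127358165-127358414 (minus) for Gjb5. Capitals mark the matches to the motifs searched.
Gja1: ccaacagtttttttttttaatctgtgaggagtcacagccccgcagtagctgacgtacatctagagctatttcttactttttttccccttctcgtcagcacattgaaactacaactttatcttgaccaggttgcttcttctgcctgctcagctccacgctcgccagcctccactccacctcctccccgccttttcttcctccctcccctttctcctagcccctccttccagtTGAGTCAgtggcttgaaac
Gja4: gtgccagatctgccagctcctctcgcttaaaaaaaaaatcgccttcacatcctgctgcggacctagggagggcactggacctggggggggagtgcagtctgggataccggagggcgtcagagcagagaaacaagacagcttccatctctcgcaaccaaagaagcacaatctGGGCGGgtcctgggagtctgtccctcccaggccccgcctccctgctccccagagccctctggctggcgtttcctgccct
Gjb5: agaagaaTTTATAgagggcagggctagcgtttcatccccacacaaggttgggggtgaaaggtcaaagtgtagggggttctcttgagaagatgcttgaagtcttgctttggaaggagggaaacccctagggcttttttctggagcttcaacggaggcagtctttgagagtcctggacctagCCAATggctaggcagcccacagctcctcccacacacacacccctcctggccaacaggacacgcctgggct

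The 5 motifs searched on both strands, chosen after the sequences had been looked at, were the AP-1 site TGACTCA, the GC box GGGCGG, the CCAAT box CCAAT, the TATA box TATAAA and the OTX2 core TAATCC. None of them overlapped another in these windows. The Gja1 window held the AP-1 letters on the reverse strand at bases -19 to -13 before the start, letters that 4.46% of 32851 such windows of all genes held. The Gja4 window held a GC box at -79 to -74, found in 32.7% of windows. The Gjb5 window held a CCAAT box at -70 to -66, found in 33.8% of windows, and TATAAA on the reverse strand at -243 to -238, found in 12.4%. The OTX2 core, held by 6.25% of windows, was in none of these 3 nor in the window of Gjb2, which had 2 GC boxes. Of the 5 members, 4 matched the RefSeq table. These matches describe letters in a window only.

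Gja1 was lowest in wild-type ESC and highest in EpiLC, with every group apart from its neighbours. Wild-type ESC replicates 1 to 3 stood at 12.2, 12.2 and 13.9 FPKM, and the EpiLC replicates at 253, 256 and 262. The Sirt1KO libraries stood at 70.5, 52.3 and 46.8, and those with the knockdown added at 19.1, 23.1 and 21.2. The order was wild-type ESC, Sirt1KO Otx2KD, Sirt1KO and EpiLC, and no range in it overlapped the next. As ratios of mean FPKM, EpiLC was 20.2 times wild-type ESC and Sirt1KO was 4.43 times wild-type ESC. Sirt1KO Otx2KD was at 37.4% of Sirt1KO and at 1.66 times wild-type ESC. On the log2(FPKM + 1) scale the differences were 4.23 ± 0.13 (SE) for EpiLC and 2.05 ± 0.13 for Sirt1KO, both against wild-type ESC. Sirt1KO Otx2KD differed by -1.36 ± 0.13 from Sirt1KO and by 0.69 ± 0.13 from wild-type ESC.

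The spread of Gja1 was widest in Sirt1KO, with an SD of 12.4 FPKM. Replicate 1 was the highest Sirt1KO library for Gja1 and also for Otx2, which read 34.2, 24.6 and 22.2 FPKM in replicates 1 to 3. Without that library the Gja1 difference was 1.88 between Sirt1KO and wild-type ESC and -1.19 between Sirt1KO Otx2KD and Sirt1KO. In 3 of the 4 comparisons all 7 EpiLC markers moved with Gja1. They rose in EpiLC and in Sirt1KO (35.8% and 32.4% of all tested loci), and fell in Sirt1KO Otx2KD against Sirt1KO (31.5%). The 7 include Otx2 itself, the target of the knockdown, so its fall there was set by the design. In Sirt1KO Otx2KD against wild-type ESC, where Gja1 was 1.66 times as high, 2 of the 7 rose (27.1% of all tested loci) and 5 did not pass. Their summed FPKM was 32.9 to 35.0 in wild-type ESC, 747 to 764 in EpiLC, 154 to 228 in Sirt1KO and 40.3 to 43.3 in Sirt1KO Otx2KD. What part the state marked by these genes had in the Gja1 level was not tested.

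Fibroblasts also make much Gja1, so 15 fibroblast and feeder markers were read beside it. Their summed FPKM was 145 to 169 in wild-type ESC, 90.5 to 98.0 in EpiLC, 16.3 to 21.5 in Sirt1KO (with Fap at 0) and 283 to 288 in Sirt1KO Otx2KD. Of 14 tested, 8 fell and 3 rose in EpiLC (38.8% and 35.8% of all tested loci), and all 14 fell in Sirt1KO (32.7%). Gja1 was higher in both groups than in wild-type ESC. All 14 rose in Sirt1KO Otx2KD against Sirt1KO (31.1% of all tested loci), where Gja1 was lower. Against wild-type ESC, where Gja1 was higher in Sirt1KO Otx2KD, 11 of 14 rose and 1 fell (27.1% and 26.8%). What part such cells had in the Gja1 level of any group was not tested.

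**Figure D2:**
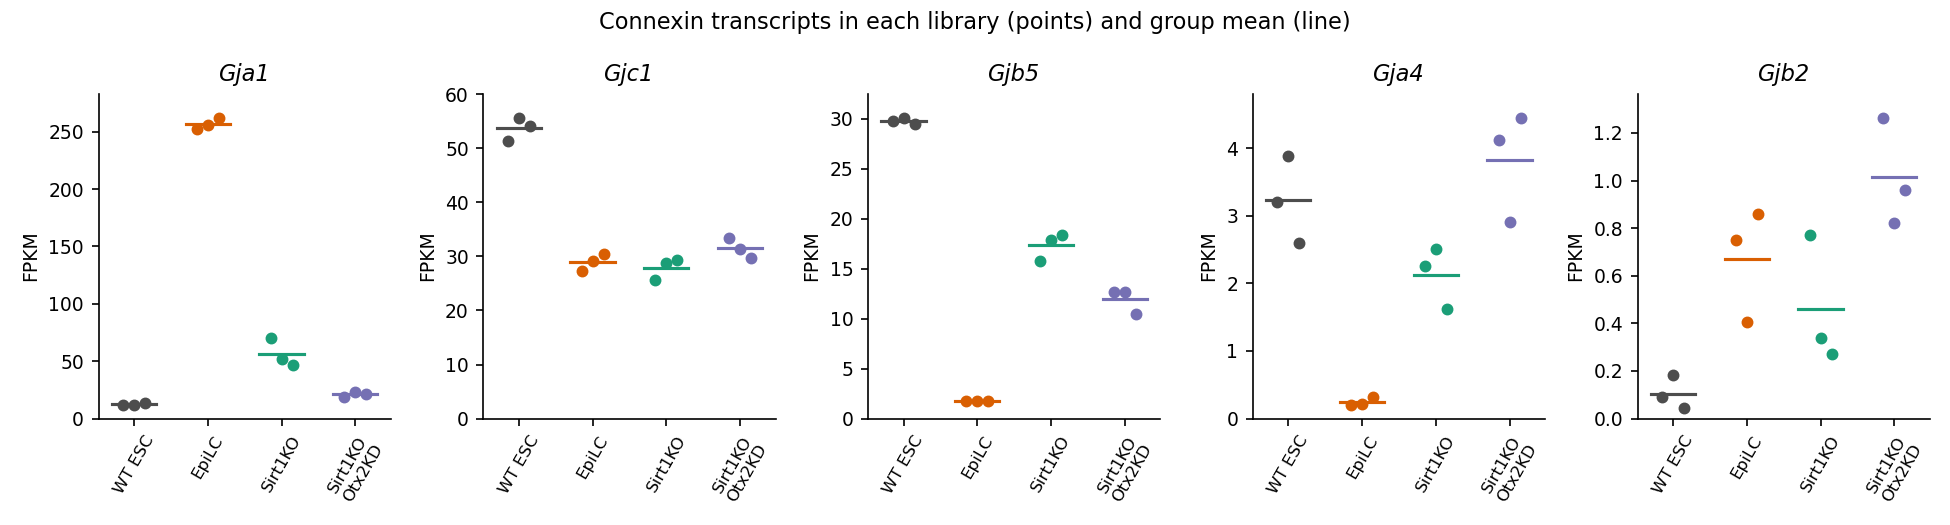
FPKM (y axis, linear from 0, scaled to each gene) of the 5 members in each of 3 libraries per group (points) with the group mean (line). Gja1 is highest in EpiLC, Gjb5 and Gja4 are lowest there, and Gjc1 is highest in wild-type ESC at 51.4 to 55.7 FPKM.

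Both Gja4, known from endothelium and oocytes, and Gjb5 lie on chromosome 4, at chr4:126988665-126991222 and chr4:127032053-127035408 in mm9.

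Gjb5 was highest in wild-type ESC and lowest in EpiLC. Wild-type ESC replicates 1 to 3 read 29.8, 30.1 and 29.5 FPKM, and the EpiLC replicates 1.71, 1.73 and 1.78. The Sirt1KO libraries read 15.8, 17.9 and 18.4, and the Sirt1KO Otx2KD libraries 12.7, 12.7 and 10.5. All 4 ranges were apart from each other. EpiLC had 5.84% of the wild-type mean, Sirt1KO 58.2% and Sirt1KO Otx2KD 40.2%. On the log2(FPKM + 1) scale these were differences of -3.49 ± 0.07, -0.75 ± 0.07 and -1.25 ± 0.07 (SE), and Sirt1KO Otx2KD lay 0.50 below Sirt1KO (-0.50 ± 0.07).

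Gja4 was scarce throughout. The wild-type ESC libraries read 3.20, 3.88 and 2.60 FPKM, and the EpiLC libraries 0.194, 0.209 and 0.313. The Sirt1KO libraries read 2.26, 2.50 and 1.62, and the Sirt1KO Otx2KD libraries 4.13, 2.90 and 4.45. EpiLC was apart from and below every other group, Sirt1KO lay just below wild-type ESC (highest 2.50 against lowest 2.60), and wild-type ESC and Sirt1KO Otx2KD overlapped. The FPKM steps put 139 fragments behind the 3 wild-type libraries (exact 95% Poisson interval 117 to 164, counting error only) and 11 behind the 3 EpiLC libraries (5.49 to 19.7). The differences were -1.76 ± 0.15 for EpiLC, -0.43 ± 0.15 for Sirt1KO and 0.19 ± 0.15 for Sirt1KO Otx2KD against wild-type ESC, and 0.62 ± 0.15 for Sirt1KO Otx2KD against Sirt1KO. With a pseudocount of 0.1 in place of 1, the EpiLC difference was -3.30, since adding 1 understates differences of genes this low.

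Of the endothelial markers, Emcn was at 0 in all libraries and Cdh5 and Erg reached at most 0.0341 and 0.0554 FPKM. Tek, the receptor of the angiopoietins, was not near 0. Its means were 6.55 FPKM for wild-type ESC, 2.00 for EpiLC, 3.90 for Sirt1KO and 7.82 for Sirt1KO Otx2KD. This was the order of the Gja4 means, in which wild-type ESC and Sirt1KO Otx2KD overlapped. Kdr, Flt1, Tie1 and Sox18 reached at most 0.297, 0.287, 0.200 and 0.973 FPKM, and their means had other orders of groups. The summed level of the 9 was 61.2 to 65.9 FPKM in wild-type ESC, 21.3 to 23.3 in EpiLC, 41.1 to 48.2 in Sirt1KO and 38.6 to 40.8 in Sirt1KO Otx2KD. Most of it was Pecam1, at 56.7 FPKM in wild-type ESC, which mouse ESCs also express. What part cells marked by these genes had in the Gja4 level was not tested.

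Set side by side, Gja4 and Gjb5 stood at 65.9% and 58.2% of their wild-type means in Sirt1KO. In Sirt1KO Otx2KD they parted, with Gja4 at 119% on average and Gjb5 at 40.2%.

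The nearest named locus on the side of Gja4, BC003266, lies 63611 bp away. Its mean was 24.0 FPKM in EpiLC against 32.3 in wild-type ESC, and it fell by 0.41 (SE 0.08, adjusted p = 0.000274 by limma with Benjamini-Hochberg adjustment over all tested loci), where the differences of Gja4 and Gjb5 were -1.76 and -3.49. It also fell in Sirt1KO (-0.31, adjusted p = 0.00366) and did not pass the test between the 2 knockout groups (-0.06, adjusted p = 0.543). On the side of Gjb5, the nearest named locus, CK137956, is 569427 bp away and reached at most 0.0555 FPKM.

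Since Gjb5 is a trophoblast connexin, 14 trophoblast markers were read beside it. Their summed FPKM was 111 to 116 in wild-type ESC, 20.8 to 22.4 in EpiLC, 61.0 to 66.4 in Sirt1KO and 87.5 to 88.3 in Sirt1KO Otx2KD. The sum was higher in Sirt1KO Otx2KD than in Sirt1KO, while Gjb5 was lower. Most of the sum was Tfap2c, a transcription factor of trophoblast and also of naive ESCs, at 80.1 FPKM in wild-type ESC. Tpbpa was at 0 in all libraries, and Cdx2, Elf5, Gata3 and Hand1 reached at most 0.206, 0.335, 0.941 and 0.219 FPKM. Of 8 markers tested, 6 fell and 1 rose in EpiLC (38.8% and 35.8% of all tested loci). In Sirt1KO, 5 rose and 3 fell (32.4% and 32.7% of all tested loci). In Sirt1KO Otx2KD against Sirt1KO, 3 rose and 4 fell (31.1% and 31.5%). Those that rose were Tfap2c, by 1.00 (log2 difference), Gata2 and Sox21. The mean of Gata2 went from 2.38 to 8.001 FPKM and that of Sox21 from 0.839 to 4.38. Eomes, Krt7, Tead4 and Ascl2 fell by 1.23, 1.58, 0.65 and 0.64 (log2 differences). What part the trophoblast markers had in the Gjb5 level was not tested.

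Gjc1, a connexin of the early embryonic heart and of vascular smooth muscle, lies at chr11:102659292-102681000 in mm9. The wild-type ESC libraries read 51.4, 55.7 and 54.2 FPKM, and the EpiLC libraries 27.3, 29.2 and 30.5. The Sirt1KO libraries read 25.6, 28.9 and 29.3, and the Sirt1KO Otx2KD libraries 33.4, 31.4 and 29.6. Wild-type ESC stood apart above all the rest, while EpiLC overlapped both knockout groups. The other groups had 54.0%, 51.9% and 58.6% of the wild-type mean, in the order EpiLC, Sirt1KO and Sirt1KO Otx2KD. The log2 differences from wild-type ESC were -0.87 ± 0.06, -0.92 ± 0.06 and -0.75 ± 0.06, and Sirt1KO Otx2KD lay 0.17 ± 0.06 above Sirt1KO.

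The level of Gjc1 moved in the same direction as the median of its chromosome, and by more. The median log2 difference of the 1039 tested loci of chromosome 11 was -0.46 for EpiLC against wild-type ESC. It was -0.49 for Sirt1KO and -0.39 for Sirt1KO Otx2KD, again against wild-type ESC, and 0.07 between the knockout groups. The medians of chromosomes 4, 10 and 14, which hold the other members, lay between -0.04 and 0.08. With the chromosome medians removed, the Gjc1 differences were -0.41, -0.44 and -0.36 from wild-type ESC and 0.10 between the knockout groups. Each kept its direction and was smaller. Chromosome 8, which holds no member, was shifted the other way, with a median of 0.40 for EpiLC against wild-type ESC. Against the same libraries it was 0.46 for Sirt1KO and 0.36 for Sirt1KO Otx2KD. Whether the cultures differed in the copy number of these chromosomes, and what part that had in the Gjc1 level, was not tested. Its neighbours were low: Adam11 averaged 0.976 FPKM in wild-type ESC and Higd1b reached at most 0.243.

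Gjb2, the connexin of the cochlea whose loss causes deafness, lies at chr14:57717439-57723539 in mm9 between Gja3 and Gjb6 and was close to the lower end of what the libraries could count. The wild-type ESC libraries read 0.0898, 0.182 and 0.0442 FPKM, and the EpiLC libraries 0.751, 0.404 and 0.860. The Sirt1KO libraries read 0.772, 0.338 and 0.271, and the Sirt1KO Otx2KD libraries 1.26, 0.820 and 0.958. Wild-type ESC was apart below the rest; EpiLC overlapped both knockout groups, and the knockout groups were apart from each other. The FPKM steps put 7 fragments behind the wild-type libraries (95% interval 2.81 to 14.4), 47 behind EpiLC (34.5 to 62.5), 34 behind Sirt1KO (23.5 to 47.5) and 74 behind Sirt1KO Otx2KD (58.1 to 92.9), at summed relative depths of 3.00 to 3.40. On the log2(FPKM + 1) scale, in a fit of all loci above 0, the differences from wild-type ESC were 0.59, 0.39 and 0.86 for EpiLC, Sirt1KO and Sirt1KO Otx2KD, each ± 0.14 (SE). They were 1.91, 1.40 and 2.48 with a pseudocount of 0.1. Gjb2 was the only member highest in Sirt1KO Otx2KD with wild-type ESC lowest; its neighbours Gja3 and Gjb6 reached at most 0.304 and 0.0432 FPKM.

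Counted together, 2 members were higher and 3 lower in EpiLC than in wild-type ESC without overlap of libraries, where 76.8% of all tested loci did not overlap (37.1% higher, 39.7% lower). In Sirt1KO against wild-type ESC the members again split 2 higher and 3 lower, beside 68.5% of tested loci (34.4% and 34.1%). The same genes lay on the same side in both: Gja1 and Gjb2 above, Gja4, Gjb5 and Gjc1 below. In Sirt1KO Otx2KD against Sirt1KO, Gja4, Gjb2 and Gjc1 were higher and Gja1 and Gjb5 lower, beside 67.2% of tested loci (33.5% and 33.7%). Against wild-type ESC, Gja1 and Gjb2 were higher, Gjb5 and Gjc1 lower and Gja4 overlapped, beside 61.3% (30.9% and 30.4%). The median log2 difference of the members was -0.87, -0.43, 0.17 and 0.19 in these comparisons, and that of all tested loci -0.02, 0.01, -0.01 and -0.00. The members were picked on these levels and the comparisons share libraries, so nothing is read from the counts.

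**Figure D3:**
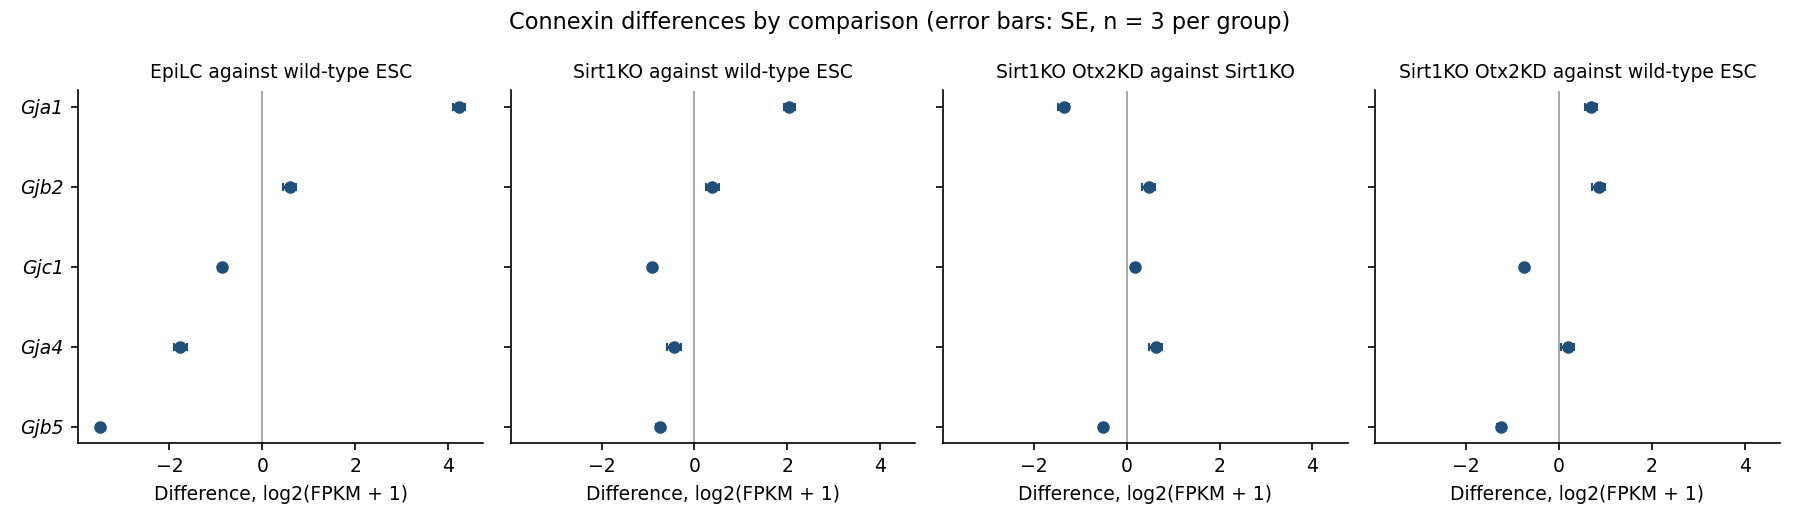
Difference in log2(FPKM + 1) (x axis) with its SE for the 5 members (y axis) in the 4 comparisons, which share wild-type ESC or Sirt1KO libraries. Gja1 lies at 4.23 in EpiLC and at -1.36 between the knockout groups, and Gja4, Gjb5 and Gjc1 lie below 0 in EpiLC and in Sirt1KO.

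Of the connexins outside the 5, 12 stayed under 1 FPKM in every library, and Gjc3 among them was at 0 throughout. The FPKM steps gave Gjb1, a connexin of liver and Schwann cells, 41 fragments over the wild-type libraries (95% interval 29.4 to 55.6), 17 in EpiLC (9.90 to 27.2), 8 in Sirt1KO (3.45 to 15.8) and 2 in Sirt1KO Otx2KD (0.242 to 7.22). Gjd3 had 13 fragments in wild-type ESC (6.92 to 22.2) and 0 in EpiLC, where the interval reached 3.69. Of all tested loci 74.6%, 65%, 62.6% and 53.9% were called, in the order EpiLC, Sirt1KO, Sirt1KO Otx2KD against Sirt1KO and Sirt1KO Otx2KD against wild-type ESC. The related channel gene Panx1 rose in EpiLC from 3.03 ± 0.482 to 5.85 ± 0.300 FPKM (SD, n = 3; log2 difference 0.77 ± 0.10 SE, adjusted p = 6.02e-06 by limma). It also rose in Sirt1KO (0.35, adjusted p = 0.00613) and did not pass the test between the knockout groups (-0.00, adjusted p = 0.972). Panx2 reached at most 0.323 FPKM and Panx3 was at 0.

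Connexins are held at the membrane by scaffolds, phosphorylated by kinases and removed by ubiquitin ligases and endosomal sorting. A list of 22 such partner genes had 21 tested. In EpiLC, 11 rose, 5 fell and 5 did not pass (35.8% of all tested loci rose and 38.8% fell), with a median log2 difference of 0.22. Of those called, Hgs (-0.45) and Csnk1d (-0.10) fell and Smurf2 (0.30) rose on chromosome 11, where the median was -0.46. Cdh1 (0.26) rose on chromosome 8, where the median was 0.40. The scaffold Tjp1, which binds the tail of Gja1, rose from 17.8 to 36.3 FPKM (0.99 ± 0.04, adjusted p = 1.23e-10). Dbn1, an actin-binding partner of Gja1, rose from 2.51 to 10.8 FPKM (1.76 ± 0.13, adjusted p = 3.00e-08). The ubiquitin ligases Nedd4 and Wwp1 each rose by 0.51 (adjusted p = 5.58e-10 and 7.46e-07). Scaffold and ubiquitin ligase transcripts were thus both among those that rose. What part they had in the handling of Gja1 protein was not tested.

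In Sirt1KO, 6 partners rose, 11 fell and 4 did not pass (background 32.4% and 32.7%), with a median of -0.12; with chromosome medians removed, 8 rose and 9 fell. The caveolin Cav1 fell from 4.35 to 0.520 FPKM (-1.83 ± 0.12, adjusted p = 8.85e-09 by limma). Nov, a matricellular protein that binds Gja1, fell from 1.87 to 0.165 (-1.30 ± 0.11, adjusted p = 1.51e-07). All 14 tested fibroblast and feeder markers fell in the same comparison, with a median of -1.88. What part cells with those markers had in the falls of Cav1 and Nov was not tested. The endosomal sorting gene Hgs, on chromosome 11, fell by 0.67 (adjusted p = 2.43e-07); with chromosome medians removed the difference was -0.18 (adjusted p = 0.0159). The adhesion gene Cdh1, on chromosome 8, rose from 142 to 204 FPKM (0.52 ± 0.03, adjusted p = 5.91e-09), but with chromosome medians removed its difference was 0.06 (adjusted p = 0.111).

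In Sirt1KO Otx2KD against Sirt1KO, 7 partners rose, 5 fell and 9 did not pass (background 31.1% and 31.5%), with a median of 0.03. Cav1 rose to 3.96 FPKM (1.71 ± 0.12, adjusted p = 2.63e-08), beside the fibroblast markers, all 14 of which rose. The ubiquitin-binding Ubqln4 rose by 0.36 (adjusted p = 3.17e-06), and Nedd4 fell by 0.41 (adjusted p = 1.64e-08). Against wild-type ESC, 6 rose, 8 fell and 7 did not pass (background 27.1% and 26.8%), with a median of -0.09; with chromosome medians removed, 7 rose and 5 fell. Cdh1 rose by 0.38 (adjusted p = 2.92e-07) and Wwp1 by 0.42 (adjusted p = 1.45e-05), and Nedd4 fell by 0.19 (adjusted p = 3.02e-05). The kinase Csnk1d, on chromosome 11, fell by 0.33 (adjusted p = 1.56e-05). With chromosome medians removed, Cdh1 stood at 0.02 (adjusted p = 0.565) and Csnk1d at 0.06 (adjusted p = 0.222), so neither call held.

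For each member the 3 named loci with the most similar profile over the 12 libraries were found by the root mean square (rms) difference of centred log2(FPKM + 1) values among 10759 candidates. Nearest to Gja1 were Vrtn (0.18), Spry4, a feedback inhibitor of receptor tyrosine kinase signalling (0.19), and the POU factor Pou3f1 (0.21), where the median candidate was at 1.64. Pou3f1 had means of 1.34, 33.01, 9.93 and 2.28 FPKM in wild-type ESC, EpiLC, Sirt1KO and Sirt1KO Otx2KD. Among those nearest to Gjb5 were Lrrc34 (0.26) and the zinc transporter Slc39a11 (0.33), against a median of 1.32. Nearest to Gja4 were Serpinb9b (0.15), the alcohol dehydrogenase Adh1 (0.18) and the histone variant gene H2afy (0.19), against 0.81. The 3 nearest to Gjc1, Etaa1 (0.08), Mrpl45 (0.09) and Ugp2 (0.09), against 0.46, all lie on chromosome 11. For Gjb2 they were Arhgef10 (0.15), Camsap3 (0.15) and Ccrn4l (0.16), against 0.44. The 12 points of each profile share groups and libraries, so the likeness rests largely on the 4 group means.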

How the data were processed

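RNA was purified on oligo-dT and made into Illumina Tru-Seq libraries, per the labels' protocols. TopHat, Cufflinks and Cuffdiff and the build mm9 are named in the submitters' processing notes; versions and settings are not given in the sources used here. The deposited values are FPKM per locus, made by the authors, in 1 file per library with 27914 loci. The 4778 loci with no name held 95.3% to 96.9% of each library's summed FPKM and entered no test.

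FPKM are not counts, so log2(FPKM + 1) was fitted with limma 3.58.1 (R 4.3.3; trended, robust eBayes), with a mean per group over all 12 libraries and Benjamini-Hochberg adjustment over 12320 loci, called at an adjusted p under 0.05. The fit was tested on simulated data. Fragment numbers of low genes were read from FPKM steps (whole within 0.02 plus 0.001 of the number); total depth is unknown. Locus starts were shifted to count from 1. The members and the lists of partners and markers were chosen with earlier results of these data known. The genes named are the members, the other connexins and pannexins, Sirt1 and Otx2, up to 4 partners with the largest t per comparison, the nearest named loci, and the 3 most similar profiles; single markers were named after their values were seen. Some genes that this rule takes in are not reported here. Alternatives changed the scaling, pseudocount, filter, fitted groups, replicate block, chromosome medians and the libraries included.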

Additional observations from a re-analysis of the deposited data

How the results depend on the processing

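The 5 members kept the direction of their log2 difference in every comparison under each alternative run (13 each; 10 for Gjb2, for which the fits with no filter, with only the compared groups and with the replicate block were not run). The largest changes came from the pseudocount of 0.1 (Gja4 -3.30, Gjb5 -4.02 and Gjb2 1.91 in EpiLC) and, for Gjc1, from removing chromosome medians; the cause was not tested. With no filter on low values, the other connexins called numbered 5 in EpiLC (1 rose, 4 fell), 5 in Sirt1KO (1 and 4) and 4 in Sirt1KO Otx2KD against wild-type ESC (0 and 4), more than with the filter, because more loci were tested. Partners called ranged over the alternatives from 15 to 17, 15 to 17, 10 to 13 and 12 to 14 in EpiLC, Sirt1KO, Sirt1KO Otx2KD against Sirt1KO, and Sirt1KO Otx2KD against wild-type ESC. With chromosome medians removed, Adam11 in EpiLC (-0.29, adjusted p = 0.0188 by limma) turned to 0.17 and Csnk1d in Sirt1KO Otx2KD against wild-type ESC turned to 0.0633. Leaving out replicate 2 of wild-type ESC or replicate 3 of EpiLC also ended the EpiLC call of Adam11 (adjusted p = 0.0874 and 0.0552) and that of D630037F22Rik, beside Gja1 (adjusted p = 0.0947 and 0.0780).

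Same-numbered libraries did not deviate together (correlations of -0.11 to 0.17), so the numbers were not taken to pair them; with the replicate block, 9080, 7893, 7567 and 6500 loci were called in the 4 comparisons against 9190, 8010, 7707 and 6639 without it, with 15, 15, 12 and 14 partners. FPKM leave total depth unknown, and Gjb2 rests on 7 to 74 fragments per group.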
